A study of Mus musculus with 17 samples.

Results

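Keratins 6, 16 and 17 are the stress keratins of stratified epithelium. They were read here through every array probe whose RefSeq transcript belongs to Krt6a, Krt6b, Krt16 or Krt17. This rule found 5 probes for the 4 genes, 2 of them for Krt6b, out of 55681 probes on the array. All 5 were among the 27577 probes bright enough to test, which stand for 21384 genes. Each array held, in the Cy5 dye channel, total RNA from the forestomach of a male MutaTMMouse animal, a transgenic mouse strain used for mutation assays. The Cy3 channel of every array held Universal Mouse Reference RNA, made from 11 mouse cell lines. The mice were aged 24 to 26 weeks and were gavaged once a day over 28 days, and the tissue was collected 72 hours after the final dose. The control group (5 arrays, replicates 1 to 5) received olive oil. The dosed groups received benzo(a)pyrene (BaP), a polycyclic aromatic hydrocarbon, in olive oil at 25 mg/kg (4 arrays, replicates 6 to 9), 50 mg/kg (4 arrays, replicates 12 to 15) or 75 mg/kg (4 arrays, replicates 17 to 20) of body weight per day. Per the design text the replicates are biological, and variation from mouse to mouse is therefore part of every error given here. RNA came from sections of whole forestomach, so more cells expressing a gene and more RNA per cell cannot be told apart.

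Keratins are the intermediate filament proteins of epithelial cells, and each filament is built from pairs of a type I and a type II chain. Krt6a and Krt6b encode type II chains, and Krt16 and Krt17 encode type I chains that pair with them. In skin these genes are known for being switched on in keratinocytes at wound edges and in hyperplastic or inflamed epithelium, while resting epithelium is built mainly on other pairs such as Krt5 with Krt14. The mouse forestomach is lined by a keratinised stratified squamous epithelium, which the human stomach lacks. Krt6a and Krt6b are neighbouring, near-identical gene copies, so which of them a Krt6 probe measured is uncertain. The array's probe sequences were not used here to settle it.

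Between 39.9% and 50.7% of the probes of an array stood well above background in Cy5. No spot of the 5 probes was flagged as an outlier or saturated. The 8 squamous keratinocyte markers checked against the tissue label were all measured, with a mean log2 Cy5 over Cy3 of 3.88 to 4.49 over the 17 arrays and 0 of 8 changed at 75 mg/kg. The glandular stomach list (9 of 12 markers measured) ranged from 0.19 to 1.50 in controls and from 0.44 to 2.80 at 75 mg/kg, and 1 array, replicate 7 at 25 mg/kg, stood apart at 5.50. Each cell type marker with a named probe was detected in Cy5 (well above background) on 1 array or more. All values below are log2 ratios of Cy5 over Cy3, and the dyes were never swapped, so a ratio itself is open to dye bias while a difference between groups shares it. Tests are limma's moderated test over all 17 arrays with Benjamini-Hochberg adjustment over the 27577 probes, and a probe is said to have risen at an adjusted p under 0.05. Unless another fit or error is named, errors after a difference are standard errors of that fit (n = 5 control arrays, n = 4 arrays a dose).

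Krt16 rose at 75 mg/kg, by 3.62 ± 0.57 on the log2 scale or 12.3-fold, and it was the only one of the 5 probes to do so. The other 4 probes were also higher at 75 mg/kg on average, by 1.32 (Krt17) to 2.08 (Krt6a), and did not pass the test. Across the dose range Krt16 and Krt6a rose with dose. The Krt6a call was close to the threshold (adjusted p 0.0406 in limma) and held in only 5 of 17 fits that each left out 1 array. With the array slide taken into account, all 5 probes except that of Krt17 rose at 75 mg/kg, beside 1.34% (369) of all tested probes. Without it, 0.703% (194) of all tested probes rose at 75 mg/kg, and 0.852% (235) rose with dose.

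**Figure D1:**
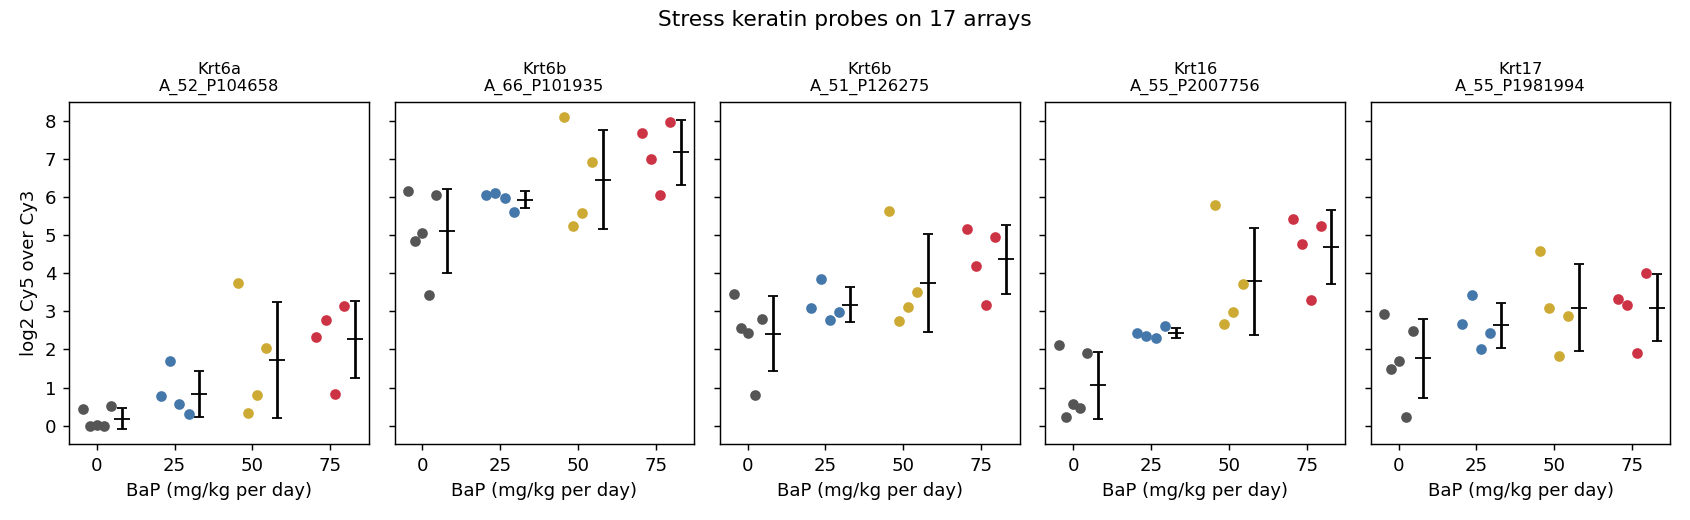
Log2 Cy5 over Cy3 of each of the 5 stress keratin probes (vertical axis) on each of the 17 arrays, by daily BaP dose (horizontal axis, mg/kg, 0 is olive oil); points are arrays, and the bar beside them is the group mean with its SD. Krt16 in controls lies between 0.22 and 2.12 and at 75 mg/kg between 3.29 and 5.42, while the 2 Krt6b panels and Krt17 overlap between these groups.

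Krt16 encodes the type I partner of keratin 6. Its probe read 2.12, 0.22, 0.56, 0.48 and 1.91 in control replicates 1 to 5. It read 2.43, 2.35, 2.31 and 2.61 at 25 mg/kg. The 50 mg/kg values were 5.79, 2.67, 2.99 and 3.71. Replicate 12 at 50 mg/kg was the highest of all 17 arrays for this gene, and the controls fell into 2 high arrays and 3 low ones. At 75 mg/kg the values were 5.42, 4.76, 3.29 and 5.24, all above the highest control. The probe stood well above background on every array in both channels. Its Cy5 spot signal was 145 to 546 units in controls and 1285 to 15067 units at 75 mg/kg.

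The 75 mg/kg difference of Krt16 had a 95% interval of 2.42 to 4.82 and an adjusted p of 0.00471 (limma). An exact two-sided permutation test of the 5 control against the 4 dosed arrays gave p = 0.00794, the smallest that these group sizes allow. By size, this difference ranked 6 from the top among the 27577 probes. At 50 mg/kg Krt16 was 2.73 ± 0.57 higher, or 6.63-fold, with an adjusted p of 0.179 (limma) and an exact permutation p of 0.00794. At 25 mg/kg it was 1.37 ± 0.57 higher, or 2.58-fold, with an adjusted p of 1.00 (limma) and an exact permutation p of 0.0397. Krt16 did not overlap with the controls at any of the 3 doses. It was the only one of the 5 probes without overlap at 25 mg/kg and at 50 mg/kg, where 0.577% and 1.13% of all tested probes had every dosed array above every control array. The unadjusted permutation p-values are given for single genes that were chosen with results known, and the adjusted p from limma decides each call.

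Krt6a encodes a type II keratin of wounded and hyperplastic epithelium. Its probe read 0.43, -0.01, 0.01, -0.01 and 0.52 in the controls, from signals too dim to place its level against the reference RNA. The 25 mg/kg arrays read 0.77, 1.70, 0.58 and 0.32. The 50 mg/kg arrays read 3.75, 0.34, 0.81 and 2.04, a range from lowest to highest that was wider than the group's own distance from control. The 75 mg/kg arrays read 2.32, 2.78, 0.84 and 3.13, and the lowest of them lay above the highest control. Krt6a and Krt16 were thus 2 of 5 probes whose 75 mg/kg and control arrays did not overlap, against 1.85% (510) of all tested probes. The Krt6a probe is dim. In Cy5 it stood well above background on 2 of 5 control arrays, on 3 of 4 at each of 25 and 50 mg/kg and on 4 of 4 at 75 mg/kg. In Cy3 it did so on 0 of 5 control arrays. The control ratios therefore compare signals close to background, with Cy5 signals of 65 to 96 units in controls and 108 to 687 units at 75 mg/kg.

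At 75 mg/kg Krt6a was 2.08 ± 0.55 higher (95% interval 0.91 to 3.25, 4.23-fold), with an adjusted p of 0.114 (limma) and an exact permutation p of 0.00794. Of the 17 fits that each left out 1 array, Krt6a passed at 75 mg/kg in 2. The adjusted p was 0.0269 (difference 2.08) without replicate 12 at 50 mg/kg and 0.0335 (difference 2.56) without replicate 19 at 75 mg/kg. In the other 15 fits Krt6a did not pass, at adjusted p-values of up to 0.327 (limma). The difference at 50 mg/kg was 1.55 with an adjusted p of 0.664, and at 25 mg/kg it was 0.65 with an adjusted p of 1.00 (limma). For Krt6a, Feature Extraction's processed signals gave 1.83 at 25, 2.05 at 50 and 2.71 at 75 mg/kg, none of them passing.

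Krt6b encodes the second type II chain of this kind and had 2 probes. The brighter probe, A_66_P101935, read 6.16, 4.84, 5.05, 3.42 and 6.04 in the controls and 6.05, 6.10, 5.96 and 5.61 at 25 mg/kg. It read 8.08, 5.24, 5.57 and 6.91 at 50 mg/kg and 7.68, 6.99, 6.04 and 7.96 at 75 mg/kg. The lowest 75 mg/kg array, replicate 19, lay below the highest control, replicate 1, so the groups overlapped. In controls this probe was far above the reference RNA, at 5.10 ± 1.10 (SD, n = 5), higher than 99.5% of tested probes. The RNA read by this probe, from Krt6b or its near-identical copy Krt6a, was thus measured in the forestomach without BaP, in Cy5 signals of 473.5 to 3918 units.

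The second Krt6b probe, A_51_P126275, read 3.46, 2.55, 2.44, 0.81 and 2.81 in the controls and 3.10, 3.84, 2.78 and 2.98 at 25 mg/kg. It read 5.62, 2.75, 3.12 and 3.51 at 50 mg/kg and 5.16, 4.19, 3.16 and 4.95 at 75 mg/kg. Both probes were well above background in Cy5 on every array, and both put control replicate 4 lowest among all 17 arrays. At 75 mg/kg the brighter probe was 2.07 ± 0.58 higher (95% interval 0.85 to 3.28, 4.18-fold), with an adjusted p of 0.143 (limma) and an exact permutation p of 0.0397. The second probe was 1.95 ± 0.57 higher, or 3.87-fold, with an adjusted p of 0.168 (limma) and an exact permutation p of 0.0238. The 2 probes of the gene gave the same direction and nearly the same size. With the processed signals the 75 mg/kg differences were smaller, 1.38 and 1.00, and did not pass.

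Krt17 encodes a type I keratin that is also found in skin appendages. Its probe read 2.94, 1.48, 1.71, 0.23 and 2.48 in the controls and 2.67, 3.43, 2.01 and 2.42 at 25 mg/kg. It read 4.58, 3.09, 1.83 and 2.89 at 50 mg/kg and 3.32, 3.16, 1.90 and 3.99 at 75 mg/kg. Replicates 14 and 15 at 50 mg/kg and 19 at 75 mg/kg lay inside the control range, and replicate 12 was the highest of all arrays. At 75 mg/kg Krt17 was 1.32 ± 0.56 higher (95% interval 0.15 to 2.50, 2.50-fold), with an adjusted p of 0.439 (limma) and an exact permutation p of 0.0794. At 50 mg/kg the difference was nearly the same, 1.33 with an adjusted p of 0.757, and at 25 mg/kg it was 0.86 with an adjusted p of 1.00 (limma). With the processed signals the 75 mg/kg difference was 0.74.

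At the lower doses 0 of the 5 probes rose against control at 25 mg/kg, where 0.0109% (3) of all tested probes did and 881 had an unadjusted p under 0.05 in limma. For 50 mg/kg 0 of 5 rose, beside 0.0326% (9) of all tested probes and 1781 with an unadjusted p under 0.05. All 5 differences from control were positive at each dose, from 0.65 (Krt6a) to 1.37 (Krt16) at 25 mg/kg and from 1.33 (Krt17) to 2.73 (Krt16) at 50 mg/kg. With processed signals Krt6a (1.83) lay above Krt16 (1.61) at 25 mg/kg. Without replicate 12 the 50 mg/kg differences were 2.06 for Krt16, 0.88 for Krt6a, 0.83 for Krt17, and 0.81 and 0.71 for the Krt6b probes. The 3 comparisons share the control arrays, so their directions are not independent of each other. The median difference of all tested probes was 0.01 at 25 mg/kg, -0.01 at 50 mg/kg and -0.01 at 75 mg/kg.

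**Figure D2:**
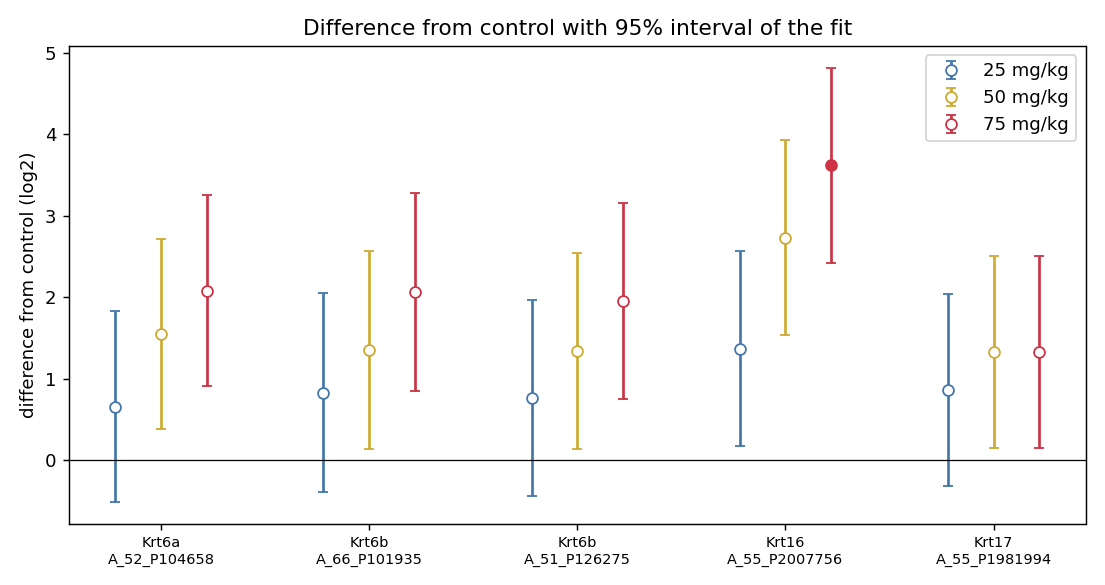
Difference from control in log2 Cy5 over Cy3 (vertical axis) for each stress keratin probe at 25, 50 and 75 mg/kg BaP; bars are 95% intervals of the limma fit, and a filled point marks an adjusted p under 0.05. Only Krt16 at 75 mg/kg, at 3.62, is filled, and Krt17 sits at 1.33 and 1.32 at the 2 upper doses.

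The slope of a line fitted through the log2 ratios over dose, per step of 25 mg/kg, was 1.23 ± 0.17 for Krt16, with an adjusted p of 0.000843 (limma), and 0.71 ± 0.17 for Krt6a, with an adjusted p of 0.0406. Those were the 2 of 5 probes that rose with dose. The brighter Krt6b probe had a slope of 0.68 ± 0.17 (adjusted p 0.0692), the second Krt6b probe 0.65 ± 0.17 (0.0814) and Krt17 0.46 ± 0.17 (0.289, all limma). The Krt6a call sat close to the threshold. It was lost, with slopes of 0.64 to 0.74 and adjusted p-values of 0.0520 to 0.125, when any 1 of 12 arrays was left out, namely control replicates 1 to 5, replicates 6, 8 and 9 at 25 mg/kg, replicate 15 at 50 mg/kg and replicates 17, 18 and 20 at 75 mg/kg. Without replicate 19 at 75 mg/kg, 4 of the 5 probes rose with dose, beside 326 of 27577 tested probes that changed with dose in either direction. Without replicate 13 at 50 mg/kg the brighter Krt6b probe passed with a slope of 0.71 and an adjusted p of 0.0451 (limma).

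Between doses, 0 of the 5 probes rose from 25 to 75 mg/kg, beside 0.0218% (6) of all tested probes and 1271 with an unadjusted p under 0.05 in limma. Krt16 came nearest, at 2.25 ± 0.60 higher with an adjusted p of 0.367 (limma) and an exact permutation p of 0.0286, the smallest that 4 against 4 arrays allow. Krt6a was 1.43 ± 0.58 higher from 25 to 75 mg/kg, with an adjusted p of 0.953. From 50 to 75 mg/kg 0 of 5 rose, beside 0% of all tested probes (755 with an unadjusted p under 0.05). In that step Krt16 was 0.89 higher, with a 95% interval of -0.37 to 2.16, and Krt17 differed by 0.00, with an interval of -1.24 to 1.24. From 25 to 50 mg/kg 0 of 5 rose, also beside 0% of all tested probes (616 with an unadjusted p under 0.05), and Krt16 was 1.36 ± 0.60 higher. The intervals leave room for a change of more than 2-fold either way in Krt17 between the upper doses.

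The arrays lay on 3 slides, each holding all 4 groups. With slide as a block in limma, 4 of the 5 probes rose at 75 mg/kg, beside 1.34% (369) of all tested probes. Krt16 was then 3.75 ± 0.46 higher (adjusted p 0.000957) and Krt6a 2.20 ± 0.47 higher (0.0266). The brighter Krt6b probe was 2.20 ± 0.42 higher (0.0129), and the second one 2.14 ± 0.38 (0.00787). Krt17 was 1.47 ± 0.42 higher and did not pass, at an adjusted p of 0.105. At 50 mg/kg Krt16 alone passed, 2.85 ± 0.46 higher with an adjusted p of 0.0343, beside 0.087% (24) of all tested probes. All 5 probes rose with dose in that fit, Krt17 with a slope of 0.53 and an adjusted p of 0.0458, beside 1.57% (433) of all tested probes.

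Within single slides, every stress keratin probe was higher at 75 mg/kg than in control on all 3 slides, each resting on 1 or 2 arrays a group. On slides 1, 2 and 3 Krt16 was 4.25, 3.51 and 3.33 higher. Krt6a was 2.11, 1.81 and 2.61 higher, the brighter Krt6b probe 2.18, 2.28 and 1.92, and Krt17 1.11, 1.56 and 1.51. At 25 mg/kg the slides did not share a direction for each gene: Krt6a was 0.21 lower than control on slide 3, Krt17 0.06 lower and the brighter Krt6b probe 0.42 lower, each from 1 array against 1.

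The changes of the members were also set against each other on the same arrays. Errors in these comparisons are ordinary pooled standard errors from the control and dosed arrays compared, not those of the limma fit. At 75 mg/kg Krt16 increased by 2.30 ± 0.34 more than Krt17 on the log2 scale, with an exact permutation p of 0.00794. The brighter Krt6b probe increased by 0.74 ± 0.12 more than Krt17, with the same exact p. Krt16 also increased by 1.54 more than Krt6a and by 1.56 more than Krt6b, each with an exact p of 0.0159. After Benjamini-Hochberg adjustment over the 18 pairs and doses compared, each of these 4 exact p-values became 0.0714, above the threshold of 0.05. The exact p of 0.00794 is the smallest that these group sizes allow, so the adjusted test had little room to pass. This outcome therefore does not show that the members changed alike. The change of Krt6a less that of Krt6b was 0.02 ± 0.51 at 75 mg/kg, which does not show that the near-identical copies moved alike. Krt6a signals in controls were close to background, so the size of its change depends on the processing. With processed signals the 75 mg/kg differences were 2.71 for Krt6a, 3.56 for Krt16 and 1.38 for the brighter Krt6b probe.

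The members went up and down together from animal to animal. Over the 17 arrays, log2 ratios of any 2 of the 5 probes had a Pearson r of 0.80 (Krt16 with Krt17) to 0.96 (the 2 Krt6b probes). After the group means were taken out, r ran from 0.74 (Krt6a with Krt17) to 0.93 (the 2 Krt6b probes). These values are a description, since the probes share the same arrays, labelling reactions and reference. Replicate 12 was the highest 50 mg/kg array for 5 of 5 probes, and replicate 19 was the lowest 75 mg/kg array for 5 of 5. Control replicate 1 was the highest control for 4 of 5 probes. Their spread was wide against other genes: the pooled SD within groups was 0.93 to 0.97, at percentile 99.2 to 99.3 of all tested probes, whose median was 0.20 (SD of log2 ratio).

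**Figure D3:**
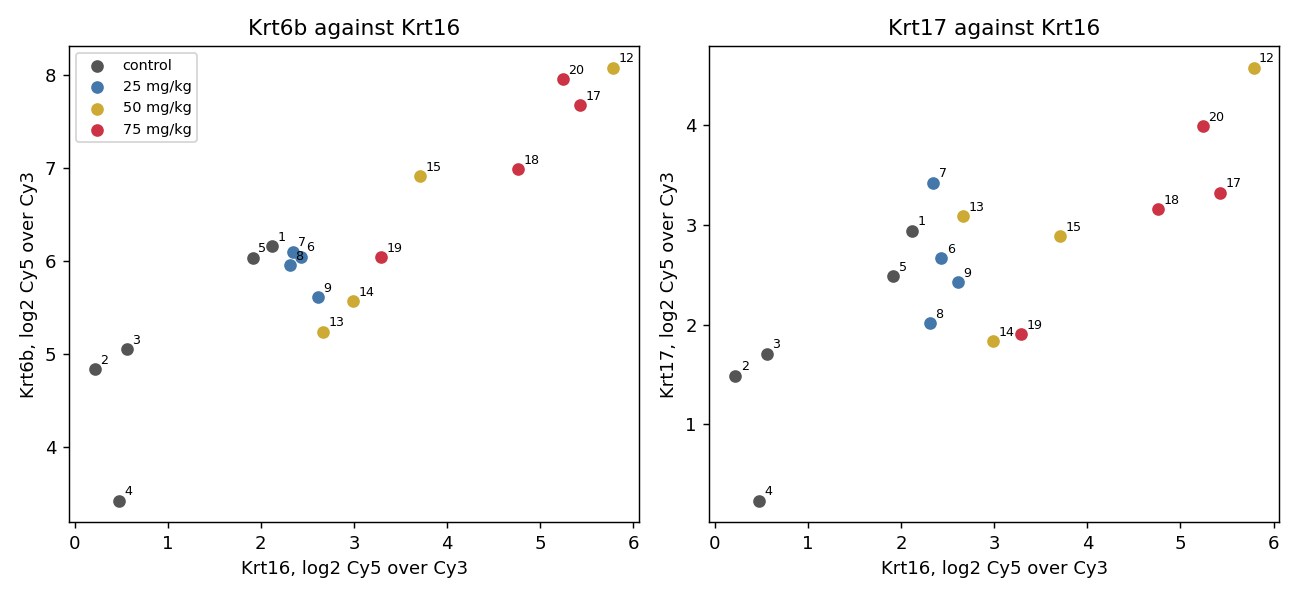
The brighter Krt6b probe (left, vertical axis) and the Krt17 probe (right, vertical axis) against the Krt16 probe (horizontal axes), all as log2 Cy5 over Cy3; each point is 1 of 17 arrays, coloured by dose and labelled with its replicate number. Replicate 12 at 50 mg/kg lies at the top right of both panels, replicate 19 is the lowest of the 75 mg/kg points, and control replicate 4 is the lowest point of both.

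The squamous marker mean moved in part with this order. It was 4.44 in replicate 12, the highest of the 50 mg/kg arrays, and 3.88 in replicate 19, the lowest of the 75 mg/kg arrays and of all 17. It was 3.91 in control replicate 4, the lowest control, while the control median was 4.11 and the 75 mg/kg median 4.28. By gene, 4 of the 8 squamous markers were higher at 75 mg/kg, with a median difference of -0.01 and a range of -0.23 to 0.96. With each array's ratios taken relative to that marker mean, an alternative chosen after the data were seen, 1 probe rose at 50 mg/kg (Krt16, 2.65, adjusted p 0.0392 in limma) and 4 rose with dose. Of all 27577 tested probes, 6 changed in either direction at 50 mg/kg in that setting, and 188 changed with dose. The glandular stomach list was highest at 75 mg/kg in replicates 20 (2.80) and 17 (2.48), and 1 or the other of these was the highest array of that dose for each stress keratin probe. It was 5.50 in replicate 7, which was the highest 25 mg/kg array for 4 of 5 probes (Krt6a 1.70, Krt6b 6.10 and 3.84, Krt17 3.43), while Krt16 read 2.35 there. The other 2 groups did not share this order. At 50 mg/kg the glandular list was lowest, at 0.83, in replicate 12, the highest array of that dose for 5 of 5 probes. Control replicate 1, the highest control for 4 of 5 probes, was at 0.30 on this list, beside 1.50 in control replicate 5. The leukocyte list (6 of 10 markers measured) was at 1.82 in control replicate 2 and at -0.24 to -0.07 in the other 4 controls. At 75 mg/kg it was at 0.40 to 1.06, with a median of 0.80 beside -0.10 in controls. By gene, only 2 of the 6 were higher at 75 mg/kg, S100a9 (2.26) and S100a8 (1.65). The median difference of the 6 leukocyte genes was -0.14. The smooth muscle list (8 of 8 measured) ranged from 4.18 to 4.85 in controls and from 3.74 to 4.29 at 75 mg/kg, and the adipocyte list (6 of 6) from 1.14 to 4.07 and from 1.12 to 3.28. The fibroblast list (6 of 6) ranged from 0.01 to 0.80 in controls and from 0.09 to 1.24 at 75 mg/kg, and the mesothelium list (4 of 4) from -0.85 to 0.03 and from -1.70 to 0.24. In none of these lists did a gene pass the test at 75 mg/kg in limma. The part of these cell types in the stress keratin values was not tested.

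The reference channel was not flat for these probes. With the Cy3 signals alone normalised between arrays, Krt16 was 1.07 ± 0.27 higher at 75 mg/kg and the brighter Krt6b probe 0.77 ± 0.13 higher, at limma adjusted p-values of 0.873 and 0.181. The other 3 probes were 0.49 to 0.74 higher, while the median over all tested probes was -0.01. Every Cy3 channel held the same reference RNA by its label, and the cause was not tested. The Cy5 channel alone gave a 75 mg/kg difference of 4.25 for Krt16 (adjusted p 0.00472 in limma) and of 2.52 for the brighter Krt6b probe (0.0221), each larger than the ratio gave. For Krt6a it gave 1.89, smaller than the ratio's 2.08, and for Krt17 1.43.

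The other genes of the 2 keratin clusters were read at 75 mg/kg in the same fit. In the GRCm38.p6 gene table Krt16 and Krt17 lie side by side in the type I cluster on chromosome 11, between Krt14 and Krt42. Krt6b and Krt6a lie side by side in the type II cluster on chromosome 15, between Krt75 and Krt5. Krt14 differed by -0.02 ± 0.19 and Krt5 by -0.06 ± 0.14, the type I and type II keratins of the basal layer. Krt42 was 0.29 ± 0.45 higher, at an adjusted p of 0.893 (limma), and Krt75 was too dim to test. Of the other 24 genes of the chromosome 11 cluster, 13 were tested, with differences from -0.12 to 0.69 (Krt12) and a median of 0.01. Of the other 24 genes of the chromosome 15 cluster, 18 were tested, with differences from -1.34 (Krt79) to 1.02 (Krt84) and a median of -0.02. None of these tested neighbours changed at an adjusted p under 0.05 in limma, where 0.814% (174) of the 21384 genes tested with 1 probe each rose and 0.182% (39) fell. The 2 farthest from 0, Krt79 and Krt84, had adjusted p-values of 0.0986 and 0.201, both smaller than that of Krt17 (0.439). That of Krt79, which was lower, was also smaller than those of Krt6a (0.114) and the Krt6b probes (0.143 and 0.168). Among the stress keratins only Krt16 had a smaller adjusted p than Krt79. Members and neighbours were not tested against each other.

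**Figure D4:**
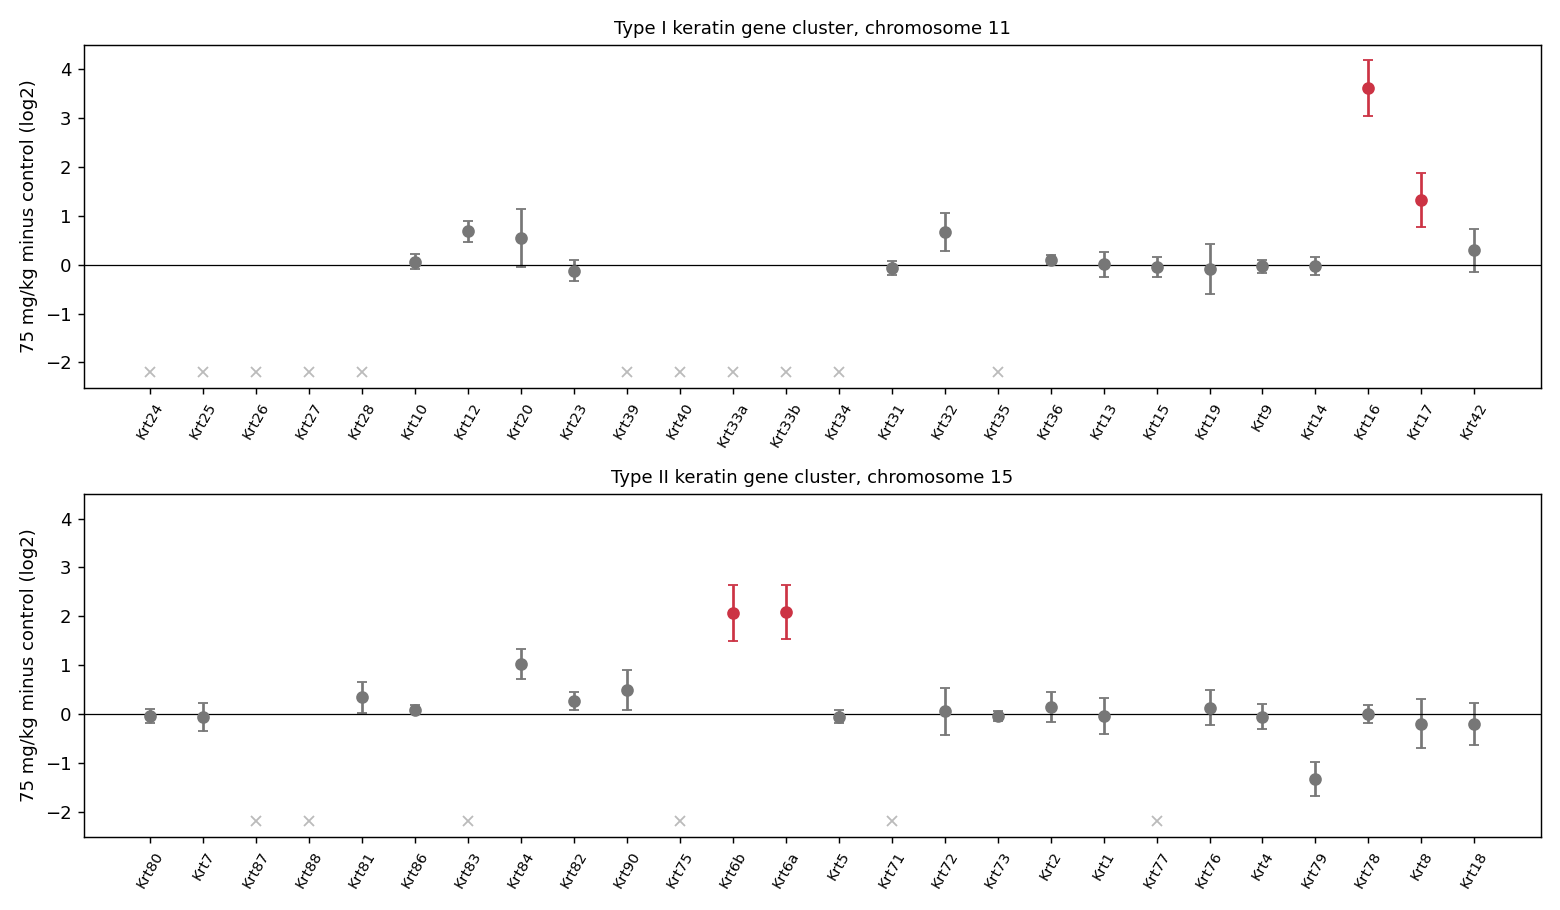
Difference at 75 mg/kg BaP from control in log2 Cy5 over Cy3 (vertical axis, with standard errors) for the genes of the type I keratin cluster on chromosome 11 and the type II cluster on chromosome 15, in gene order (horizontal axis, not to scale); stress keratins are red, and crosses are genes that were not tested. Krt16 lies at 3.62 and Krt6a at 2.08, with their neighbours Krt14 at -0.02 and Krt5 at -0.06.

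By function, of the keratins of resting stratified epithelium, 12 of 13 were measured, 0 rose and 0 fell at 75 mg/kg, with a median difference of -0.03 beside -0.01 over all genes. Krt79, a type II keratin, was lowest at -1.34 ± 0.35 (adjusted p 0.0986 in limma) and Krt2, of the upper epidermal layers, was at 0.14 ± 0.31. With dose 1 of the 12 fell, Krt79, with a slope of -0.47 ± 0.11 per 25 mg/kg step and an adjusted p of 0.0403 (limma), beside 0.262% (56) of all genes; 0 of the 12 rose, beside 1% (214). Of the hair follicle keratins 6 of 18 were measured and 0 changed, with a median of 0.07; Krt81 was at 0.34 ± 0.31 and Krt36 at 0.10 ± 0.10. All 6 simple epithelial keratins were measured and 0 changed, with a median of -0.10; Krt20, a keratin of gut epithelium, was at 0.55 ± 0.60 and Krt18 at -0.21 ± 0.44.

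Genes known to act upstream of stress keratins changed in few cases. Of the EGF receptor and its ligands 10 of 11 were measured and 0 rose at 75 mg/kg, although 9 of 10 differences were positive, with a median of 0.20. Epgn (epigen) was 0.91 ± 0.28 higher and Areg (amphiregulin) 0.73 ± 0.38 higher, at limma adjusted p-values of 0.192 and 0.579. Of 19 cytokines that act on keratinocytes 4 were measured and 0 changed, with a median of -0.04, while the other 15 were too dim to test or had no named probe. Il33, an alarmin cytokine, was 0.69 ± 0.22 higher (adjusted p 0.244) and Il18 was at -0.10 ± 0.25. Among cytokine receptors 12 of 14 were measured and 1 rose (beside 0.814% of all genes), with a median of -0.04. That gene was Il20ra, a receptor chain for the interleukins of the IL-20 group, at 1.24 ± 0.24 or 2.37-fold higher with an adjusted p of 0.0165 (limma). Its partner chain Il20rb was at 0.34 ± 0.28 and Ifngr2, a chain of the interferon gamma receptor, at 0.28 ± 0.11, neither of which passed.

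Of the transcription factors tied to these genes 19 of 20 were measured, with a median of 0.06. Nfe2l2, which encodes the oxidative stress factor NRF2, was at 0.38 ± 0.15 (adjusted p 0.386) and Klf5, a factor of proliferating epithelium, at 0.37 ± 0.25 (0.704), neither of which passed. Of the partners and linkers of keratin filaments all 17 were measured and 0 changed, with a median of 0.03. Dsp (desmoplakin), which ties keratin to desmosomes, was 0.48 ± 0.18 higher (adjusted p 0.338) and Jup (plakoglobin) 0.41 ± 0.26 higher (0.663).

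On the list of alarmins and related epithelial genes, such as Cnfn and Slpi, all 11 genes were measured and 1 rose (beside 0.814% of all genes), with a median of 0.22. S100a7a stood well above background on 0 of 5 arrays in the controls and on 4 of 4 at 75 mg/kg, and was at least 1.51-fold higher with an adjusted p of 0.00277 (limma). That fold is a bound, taken in the Cy5 channel against the lowest signal above background, and is open to dye bias. S100a9 was 2.26 ± 0.65 higher and S100a8 1.65 ± 0.98 higher, at adjusted p-values of 0.156 and 0.642; both are also genes of neutrophils and stand on the leukocyte list. Of the wound edge genes 14 of 17 were measured and 0 changed, with a median of 0.01; Itga6, an integrin of hemidesmosomes, was at 0.45 ± 0.20 and Fn1 (fibronectin) at -0.57 ± 0.27. Of the cell cycle genes 14 of 15 were measured and 0 changed, with a median of 0.04; Birc5 (survivin) was at 0.39 ± 0.34 and Cdk1 at -0.32 ± 0.25.

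The genes whose log2 ratios followed the stress keratins most closely over the 17 arrays were taken from 13829 named genes. For Krt16 they were Sprr1b (Pearson r 0.93), Stfa1 (0.92), Defb14 (0.92), Sprr2g (0.92) and Stfa2 (0.92). Sprr genes encode small proline-rich proteins of the cornified envelope, Stfa genes encode stefin A protease inhibitors and Defb14 encodes a beta-defensin. For Krt6a they were Gm5476 (0.95), Stfa2 (0.92), Cldn17 (0.91), Sprr2f (0.91) and Stfa1 (0.91). For the brighter Krt6b probe they were Sem1 (0.91), Ndfip1 (0.90), Dsc2 (0.90), Cstdc5 (0.90) and Sprr1b (0.89). Dsc2 encodes a desmosomal cadherin. For Krt17 they were Bola2 (0.88), Syngr2 (0.86), Cdcp1 (0.85), Vsig8 (0.84) and Ndufb7 (0.84), none of which stood in the leading 5 of another member.

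With the group means taken out, the leading genes were partly others. Krt6a was followed most closely by Gm5476 (0.91), Stfa2 (0.91), Stfa1 (0.89), Dsc2 (0.85) and Cldn17 (0.84). Krt16 was followed by Crabp2 (0.90), a retinoic acid binding protein gene, and by Zswim4 (0.86), Tst (0.86), Fnta (0.84) and Fxyd3 (0.84). Krt6b was followed by Ndfip1 (0.92), Efl1 (0.90), Ehf (0.90), Tomm20 (0.90) and Pop5 (0.89). Krt17 was followed by Slurp1 (0.91), Ehf (0.89), Col15a1 (0.88), Ndufb7 (0.88) and Cdcp1 (0.87). Ehf, an epithelial ETS transcription factor gene, stood beside both Krt6b and Krt17. These correlations are descriptions over arrays that share labelling and reference, and with Spearman's rho only 1 or 2 of each leading 5 were found again.

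**Figure D5:**
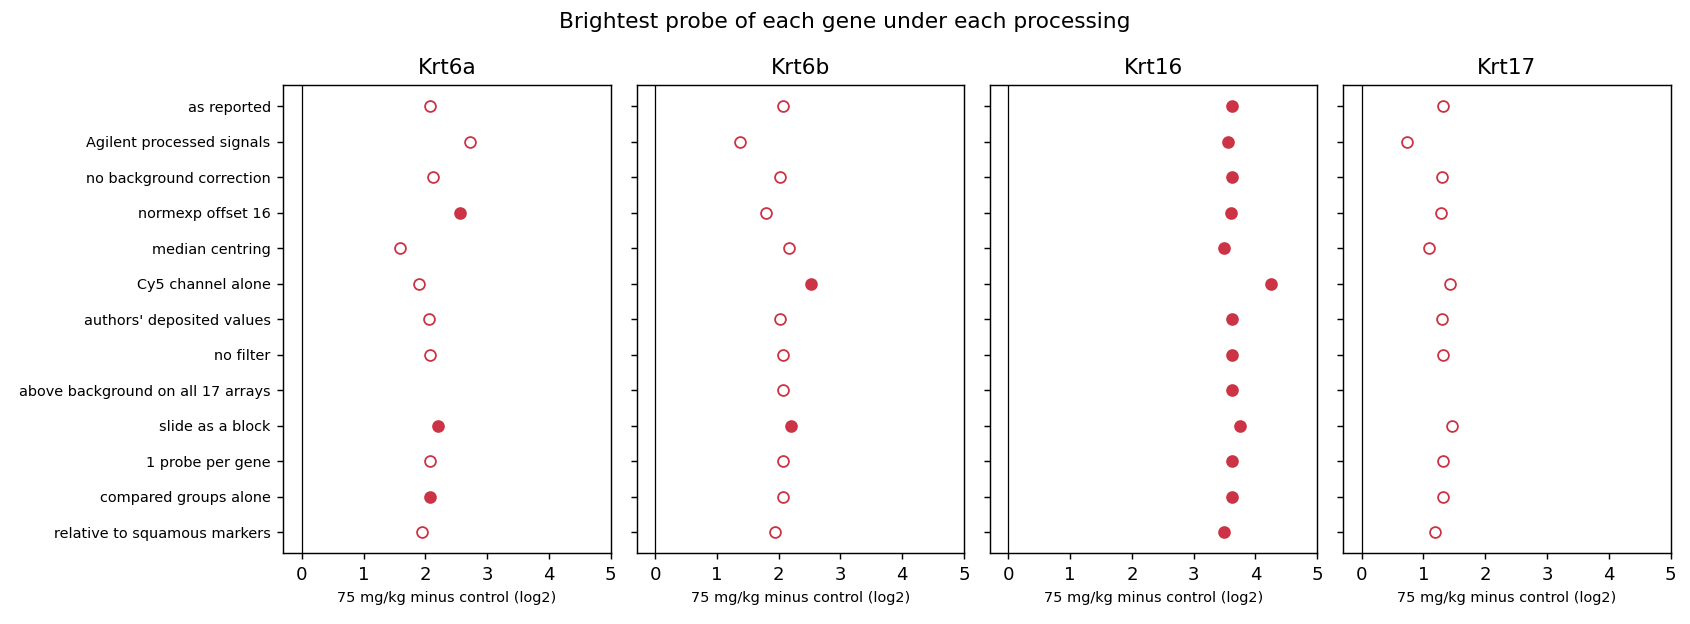
Difference at 75 mg/kg from control in log2 units (horizontal axis) for the brightest probe of each stress keratin gene under each processing (rows); a filled point marks an adjusted p under 0.05, and no point means that the probe did not pass that filter. Krt16 is filled in each row it has, between 3.48 and 4.25, while Krt17 is open in each of its rows.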

How the data were processed

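The members, gene lists and tests were chosen with earlier results of these data known. The authors deposited, per the file headers, 1 Feature Extraction 10.7.3.1 scanner table per array with spot intensity in both channels (62976 spots, 3671 of them controls). The median signal and median local background were used. The authors also deposited a table of log2 values with no scale stated; its columns (0 of them unmatched) correlated at 0.998 to 0.999 with each array's log2 ratio of Cy5 to Cy3 when loess was run on uncorrected signals. Per the labels' protocols 200 ng of RNA with integrity numbers above 6.6 was labelled per array, and forestomach RNA was in Cy5. The protocol gives n = 5 per group; 17 arrays were analysed here.

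Intensities were corrected with limma 3.58.1 in R 4.3.3 (normexp, offset 50) and normalized by loess within each array, with control spots at weight 0; control spots and outlier spots were left out, and spots of a probe were averaged. Tested probes had to be well above background (Cy5) on 4 arrays or more. Symbols came through RefSeq transcripts in the GRCm38.p6 gene table, which named 26413 of 55681 probes; the array design names another build, so no coordinates are given. For lists and neighbours, each gene was its probe of highest mean brightness. Named from each list were genes with an adjusted p under 0.05 at 75 mg/kg (at most 4) and the 2 farthest from 0 among the rest; the 5 most alike genes were those of highest Pearson r. Changes were compared between members by exact two-sided permutation of the arrays. The scripts were checked on simulated data. The result of 1 gene on the transcription factor list is not reported here. Alternatives were Feature Extraction's processed signals, no background correction, an offset of 16, median centring, Cy5 alone, the authors' values, other filters, slide as a block or alone, the compared groups alone, 1 probe per gene, and leaving out each array. The number of arrays limits the precision.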

Additional observations from a re-analysis of the deposited data

How the results depend on the processing

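Krt16 at 75 mg/kg passed in 12 of 12 other settings (3.48 to 4.25, adjusted p 0.000283 to 0.00940 in limma) and without any 1 array (3.37 to 4.08, adjusted p up to 0.0293); its dose slope passed in 11 of 11 and in 17 of 17. Differences from control kept their positive sign in 142 of 142 fits of probe and setting at each dose, single slides not counted. Calls that changed were these. For the Krt6a slope, processed signals gave 0.86, Cy5 alone 0.67 and no filter 0.71, none passing; without any 1 array it was 0.64 to 0.84. Krt6a at 75 mg/kg passed with offset 16 (2.56), slide as a block (2.20) and the compared groups alone (2.08), and ran from 1.79 to 2.56 without any 1 array. Krt6b passed at 75 mg/kg with Cy5 alone (2.52) and slide as a block (2.20), and its slope with Cy5 alone (0.83), slide as a block (0.74) and relative to squamous markers (0.64), or 0.55 to 0.77 without any 1 array. Krt16 at 50 mg/kg passed with slide as a block (2.85) and relative to squamous markers (2.65), and the Krt17 slope with slide as a block (0.53). Of the 5 probes, the number that rose at 75 mg/kg was 2 with offset 16, Cy5 alone or the compared groups alone. It was 4 with slide as a block, and 1 to 2 without any 1 array. Of all 27577 tested probes, 239 changed in either direction with offset 16, 283 with Cy5 alone and 474 with slide as a block. Without any 1 array 106 to 300 did, and for the compared groups alone no such count was made. Of the 5 probes, the number that rose with dose was 1 with processed signals, no filter or the filter on all 17 arrays. It was 5 with slide as a block, 4 relative to squamous markers, and 1 to 4 without any 1 array. Of all tested probes, 273 of 27577 changed with dose in either direction with processed signals. With no filter 265 of 55681 did, and with the filter on all 17 arrays 227 of 19909. With slide as a block 616 of 27577 did, relative to squamous markers 188, and without any 1 array 189 to 429. At 50 mg/kg 1 of the 5 probes rose with slide as a block and 1 relative to squamous markers. Beside them, 27 and 6 of 27577 tested probes changed in either direction.

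Within single slides, values against control that moved by more than the replicate SD were Krt6b at 25 mg/kg (-0.42, slide 3), Krt6a (3.54), Krt6b (2.58), Krt16 (4.62) and Krt17 (2.37) at 50 mg/kg on slide 1, with the second Krt6b probe (2.62), and Krt6a at 50 mg/kg on slide 2 (0.57). From 25 to 75 mg/kg on slide 3 Krt6a (2.82), Krt6b (2.35) and Krt17 (1.57) moved. Between the upper doses all 5 probes were lower at 75 than at 50 mg/kg on slide 1, from -1.43 (Krt6a) to -0.36 (Krt16), and Krt17 was 1.10 higher on slide 3. From 25 to 50 mg/kg the 5 probes were 1.53 (Krt17) to 3.40 (Krt16) higher on slide 1, and Krt6b was at -0.55 on slide 2. Apart from single slides, signs turned only between doses. With processed signals, Krt17 was at -0.28 from 25 to 75 mg/kg and -0.06 from 25 to 50 mg/kg, and the second Krt6b probe at -0.057 from 50 to 75 mg/kg. Krt17 from 50 to 75 mg/kg was 0.002 without background correction and 0.15 with median centring, and ran from -0.42 to 0.49 without any 1 array. From 25 to 50 mg/kg, without any 1 array, Krt6b ran from -0.02 to 0.93, its second probe from -0.046 to 0.91 and Krt17 from -0.03 to 0.89, each turning sign without replicate 12. The cause was not tested. No paired analysis was possible because the groups share no replicate numbers. Krt6a and Krt17 gave no value under the filter on all 17 arrays, and single slides gave no count of calls since they hold too few arrays for a test. The number of genes called at 75 mg/kg did not change in any of the 19 lists when all probes of a gene were averaged.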
